A study of Homo sapiens with 6 samples.

Results

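A set of 10 surface, enzyme and transcription factor genes that are used to describe stem-like breast cancer cells was followed in MDA-MB231 cells with and without a Ror1 knockdown, namely PODXL, CD44, CD24, ALDH1A1, ALDH1A3, PROM1, NT5E, THY1, SOX9 and PROCR. The genes were selected by name, and the list was chosen with the shRor1 against shCTL values of these libraries known, so their differences between the conditions are given as a description without a test. Symbols were matched to the Ensembl identifiers of the deposited table, and 9 of the 10 genes were found among its 57445 rows. No row carried the symbol CD24. MDA-MB231 (MDA-MB-231 in the labels) is an established line of triple-negative breast cancer with a mesenchymal character. Cells carried either a pGIPZ lentiviral vector with a non-sense control hairpin (shCTL, 3 libraries) or a pGIPZ vector with 1 hairpin against ROR1 (shRor1, 3 libraries), and both were selected with puromycin at 2 µg/ml. The sources differ on the control, which the sample labels call an empty vector and whose column headers also contain the word DMSO, so a difference in solvent cannot be told apart from the knockdown. The sources used here do not say whether the 3 libraries of a condition came from separate cultures, and the p-values measure only the spread between these libraries, which may be technical.

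CD44 is the receptor for hyaluronan, a long sugar polymer of the extracellular matrix, and breast cancer cells with high CD44 and low CD24 have been described as tumor-initiating. PODXL (podocalyxin) is a heavily sialylated membrane mucin of the CD34 family that is linked through NHERF adaptors and ezrin to cortical actin. ALDH1A1 and ALDH1A3 oxidize retinal to retinoic acid and account for much of the aldehyde dehydrogenase activity that is used to sort stem-like cells. PROM1 (CD133), THY1 (CD90), NT5E (CD73) and PROCR (the endothelial protein C receptor) are surface markers of progenitor or mesenchymal cells, and SOX9 is a transcription factor of progenitor cells in many epithelia.

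The values are TPM, a relative transcript abundance that sums to the same total in every library, which the authors estimated per gene and which is corrected for gene length, so levels of different genes can be set side by side. TPM keeps no depth, the read totals of the study were not used here, and no counting interval is given. Libraries are named by their order in the deposited table, since the columns carry no replicate number. The cell line was checked against its markers. VIM, the mesenchymal intermediate filament vimentin, had 2565 ± 149 TPM in shCTL and 2692 ± 204 TPM in shRor1 (SD, n = 3 each). ESR1 and PGR, the hormone receptors, did not exceed 0.21 TPM in any library. The rest of the luminal and epithelial list was higher, with KRT19 from 84.8 to 141.5 TPM, FOXA1 from 3.72 to 5.45, GATA3 from 3.83 to 4.69 and CLDN3 from 0.61 to 1.33 TPM. CDH1 had 1.01, 0.8 and 1.22 TPM in shCTL and 1.36, 1.41 and 1.47 TPM in shRor1. It was thus higher without overlap, as were 6.48% of all tested genes, and it was not called. Summed over the marker lists, the 5 genes of the cell line took from 3980 to 4124 TPM in shCTL and from 4106 to 4436 TPM in shRor1, and luminal and epithelial genes from 96.1 to 139 TPM and from 102.9 to 154 TPM. Leukocyte genes took from 0.37 to 1.01 TPM, endothelial genes from 0.77 to 2.25 TPM and fibroblast genes from 8.81 to 15.0 TPM, with no list higher in all shRor1 than in all shCTL libraries. For ROR1, the targeted receptor, TPM was 15.4, 13.5 and 20.6 with shCTL and 9.34, 11.9 and 14.9 with shRor1 (16.5 ± 3.65 against 12.0 ± 2.76, SD, n = 3 each). The lowest shCTL value of ROR1 was thus below the highest shRor1 value, and the groups overlapped. These are RNA values, while the study reported a stable knockdown with a western blot of the Ror1 protein, which was not measured here.

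The 9 genes fell into 2 sets by level. CD44, NT5E, PODXL, PROCR, SOX9 and ALDH1A3 were expressed above 1 TPM in every library, while THY1, PROM1 and ALDH1A1 were at or below 0.09 TPM in every library. Ordered by the mean over the 6 libraries, CD44 stood first with 439 ± 69.5 TPM (SD, n = 6 libraries), which was rank 294 among all genes of the table. NT5E followed with 394 ± 64.8 TPM (rank 332), PODXL with 80.3 ± 24.4 TPM (rank 2161), PROCR with 73.6 ± 9.22 TPM (rank 2360), SOX9 with 35.4 ± 5.94 TPM (rank 4635) and ALDH1A3 with 9.28 ± 1.10 TPM (rank 9348). Of the 8 pairs of neighbours in this order, 4 had ranges that did not overlap. NT5E was above PODXL, PROCR above SOX9, SOX9 above ALDH1A3 and ALDH1A3 above THY1 in all libraries. CD44 and NT5E could not be separated by their ranges, nor could PODXL and PROCR, nor the 3 genes near 0.

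**Figure D1:**
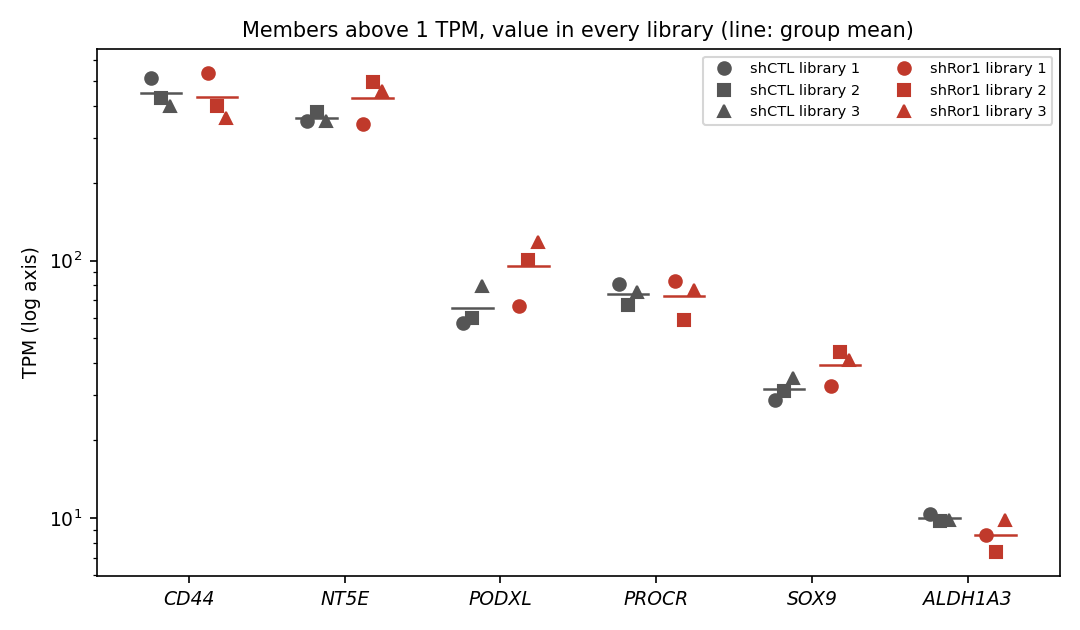
TPM of the 6 genes above 1 TPM in each library, on a log axis, with gray symbols for shCTL, red symbols for shRor1, the symbol shape for the order of the library in the table and a line for the group mean. CD44 and NT5E lie near 400 TPM, and for PODXL, SOX9 and NT5E the shRor1 libraries 2 and 3 lie above all shCTL libraries while the shRor1 library 1 does not.

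The aldehyde dehydrogenase pair showed how unequal related markers were in these cells. ALDH1A3 (chromosome 15 of GRCh37, 101417919 to 101456831, plus strand) reached 9.97 ± 0.35 TPM in shCTL (SD, n = 3), and ALDH1A1 (chromosome 9, 75515587 to 75695358, minus strand) was listed between 0 and 0.02 TPM in all 6 libraries. Promoter windows were available in the RefSeq table (GRCh38.p14) for 7 of the 10 genes, some with several starts. The 250 bases upstream of the start are shown for this pair and for the 2 most abundant genes of the list, so that a gene listed near 0 and 3 expressed genes can be compared, 5′ to 3′ on the strand of the gene. Capitals mark matches, on either strand, to the GC box GGGCGG, the AP-1 motif TGANTCA, the cyclic AMP response motif TGACGT or the TATA box TATAAA, and overlapping matches run together.
ALDH1A3, chr15:100879581-100879830, plus strand: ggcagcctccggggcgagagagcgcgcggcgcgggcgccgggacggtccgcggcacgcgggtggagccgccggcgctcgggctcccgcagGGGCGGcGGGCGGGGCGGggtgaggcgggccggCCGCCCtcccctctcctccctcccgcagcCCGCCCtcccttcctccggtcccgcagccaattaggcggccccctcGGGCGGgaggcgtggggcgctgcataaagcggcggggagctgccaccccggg
ALDH1A1, chr9:72953054-72953303, minus strand: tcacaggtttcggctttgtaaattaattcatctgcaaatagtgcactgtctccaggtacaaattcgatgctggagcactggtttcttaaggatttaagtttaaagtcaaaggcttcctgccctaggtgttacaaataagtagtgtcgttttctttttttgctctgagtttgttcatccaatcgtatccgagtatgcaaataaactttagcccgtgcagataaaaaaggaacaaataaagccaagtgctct
CD44, chr11:35138921-35139170, plus strand: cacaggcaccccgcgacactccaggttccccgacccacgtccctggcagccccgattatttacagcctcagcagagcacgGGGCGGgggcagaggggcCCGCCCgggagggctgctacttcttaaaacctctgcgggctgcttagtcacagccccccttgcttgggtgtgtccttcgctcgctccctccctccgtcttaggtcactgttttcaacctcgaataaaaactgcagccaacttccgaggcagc
NT5E, chr6:85449833-85450082, plus strand: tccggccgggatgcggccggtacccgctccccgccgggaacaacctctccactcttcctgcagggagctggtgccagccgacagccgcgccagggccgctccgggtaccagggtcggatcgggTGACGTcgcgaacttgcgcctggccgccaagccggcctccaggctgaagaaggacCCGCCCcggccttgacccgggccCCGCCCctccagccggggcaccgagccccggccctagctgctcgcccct

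The window of ALDH1A3 held 6 GC boxes and had a GC content of 82.4%, and the window of ALDH1A1 held none of the 4 motifs and had a GC content of 38.4%. The median GC content of all 35116 windows of this length was 58.0%. CD44 and NT5E held 2 GC boxes each, in windows with a GC content of 62.4% and 75.2%, and NT5E held 1 TGACGT. Of all windows, 42.6% held a GC box, 6.57% the AP-1 motif, 7.1% TGACGT and 10.7% the TATA box. PROM1, which was also near 0, had several windows, not shown, with a GC content from 56.8% to 68.8%. The one with 68.8% held 1 GC box and the one with 56.8% held 1 AP-1 motif. A gene near 0 thus did not always have windows low in GC content, and no link of motifs to level was tested. A match of letters is a description of the window and was not set against any binding data.

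PODXL (ENSG00000128567.12, chromosome 7, 131185021 to 131242976, minus strand) had the largest difference among the 6 expressed genes of the list. Its TPM was 57.4, 59.8 and 79.6 with shCTL and 66.4, 100.3 and 118 with shRor1. The second and the third shRor1 library lay above all controls, while the first lay inside the range of the controls. The mean went from 65.6 ± 12.2 TPM to 95.0 ± 26.3 TPM (SD, n = 3 each), which is 145% of the control. On the log2(TPM + 1) scale the difference was 0.50 with a standard error of 0.22, and it was 0.33 without the third and 0.74 without the first shRor1 library.

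SOX9 (ENSG00000125398.5, chromosome 17, 70117161 to 70122557, plus strand) showed the same arrangement of libraries. It had 28.8, 31.1 and 35.1 TPM in shCTL and 32.6, 44.1 and 40.9 TPM in shRor1. Again the first shRor1 library lay among the controls and the other two lay above them. The log2 difference of SOX9 was 0.29 with a standard error of 0.13.

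NT5E (ENSG00000135318.7, chromosome 6, 86159302 to 86205509, plus strand) encodes the ecto-enzyme that forms adenosine from AMP outside the cell. It had 347, 378 and 349 TPM in shCTL, a narrow range, and 339, 494 and 454 TPM in shRor1. The first shRor1 library was the lowest of all 6 and the other two were the highest. The log2 difference of NT5E was 0.24 with a standard error of 0.14, and it was 0.13 without the second and 0.40 without the first shRor1 library. At least 2 of the 3 shRor1 libraries were above all controls for 3 of the 6 expressed genes and for 29.6% of all 16554 genes tested. The narrower arrangement seen here, with the second and the third but not the first shRor1 library above all controls, was noticed in these genes and was present in 15.0% of all tested genes.

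CD44 (ENSG00000026508.12, chromosome 11, 35160429 to 35253949, plus strand) had 513, 428 and 398 TPM in shCTL and 534, 400 and 359 TPM in shRor1. The libraries of each condition spread over more than the difference between the conditions, and the highest and the lowest value both belonged to shRor1. The mean was 447 ± 59.3 TPM in shCTL and 431 ± 91.6 TPM in shRor1 (SD, n = 3 each). The log2 difference of CD44 was -0.06 with a standard error of 0.16, and its sign changed without the first shCTL library (0.04) and without the third shRor1 library (0.06). The gene value sums all CD44 isoforms, so the standard and the variant forms, which differ in alternative exons of the stem region, could not be compared.

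PROCR (ENSG00000101000.4, chromosome 20, 33759875 to 33804043, plus strand) showed no order of the libraries by condition. It had 80.9, 66.9 and 75.2 TPM in shCTL and 83.4, 58.8 and 76.5 TPM in shRor1, with the highest and the lowest value again in shRor1. The log2 difference of PROCR was -0.04 with a standard error of 0.14, and its sign changed without the first shCTL library (0.02) and without the second shRor1 library (0.11). ALDH1A3 had 10.4, 9.74 and 9.79 TPM in shCTL and 8.56, 7.39 and 9.83 TPM in shRor1. For ALDH1A3, 2 of the 3 shRor1 libraries were below all controls and the third was within their range. The log2 difference of ALDH1A3 was -0.20 with a standard error of 0.12, and it was -0.11 without the second shRor1 library.

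**Figure D2:**
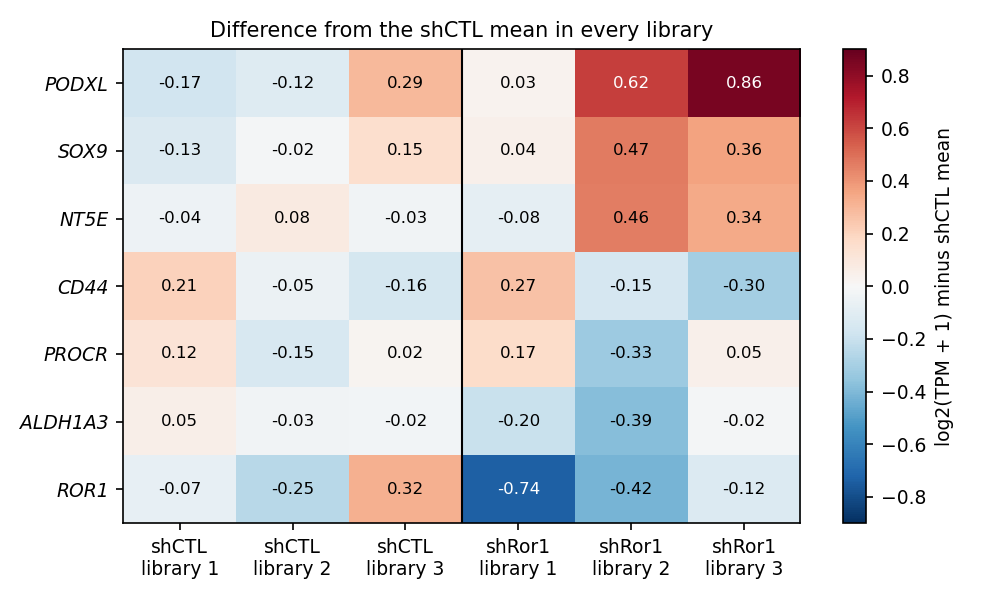
Difference of log2(TPM + 1) from the shCTL mean for the 6 expressed genes and for ROR1, with one column per library and red for higher and blue for lower values. PODXL, SOX9 and NT5E are red in the shRor1 libraries 2 and 3 and near 0 in the shRor1 library 1, which has the lowest ROR1 value, -0.74.

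THY1 (chromosome 11, 119286186 to 119295695, minus strand), a glycosylphosphatidylinositol-anchored surface protein, had TPM values of 0.06, 0.04 and 0.06 with shCTL and 0.09, 0 and 0.03 with shRor1. PROM1 (chromosome 4, 15964699 to 16086001, minus strand), a protein of membrane protrusions, had TPM values of 0.01, 0.05 and 0.06 with shCTL and 0, 0.06 and 0 with shRor1. With ALDH1A1 these 3 genes did not pass the filter of at least 1 TPM in at least 3 libraries and entered no comparison. For CD24, only the row of its pseudogene CD24P4 (ENSG00000185275.6) was seen, with 3.33, 2.95 and 2.42 TPM in shCTL and 3.10, 3.94 and 7.48 TPM in shRor1. Reads of a gene and of a near-identical copy cannot be told apart here, so the values of this row may hold reads of CD24. CD24 itself was not analysed here. In libraries made from whole cultures, fewer cells that express a gene and less RNA per cell cannot be told apart either.

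In the fit over all 16554 genes, 0 genes had an adjusted p below 0.05 (0.0%, limma with Benjamini-Hochberg adjustment, smallest adjusted p = 0.369), so no gene of the list was called. The study fitted a count model instead and reported AGR2 and a gene of an uncharacterized protein as differentially expressed between these conditions. The methods differ, so the 0 holds for the fit on TPM. An unadjusted p below 0.05 was found for 472 genes (2.85%). Of the 6 expressed genes 3 had a higher mean log2 value in shRor1 and 3 a lower one, while 67.0% of all tested genes were higher. That share depended on the scale of the libraries, since it was 50.5% with quantile normalization and 50.3% with median ratio scaling, while the split of the 6 genes was 3 and 3 under both. Their median log2 difference was 0.10, against 0.05 for all tested genes. Since these genes were chosen with this contrast known, nothing is read from these counts. None of the 6 had groups without overlap, which was found for 7.78% of all tested genes, with 6.48% higher and 1.3% lower in shRor1.

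**Figure D3:**
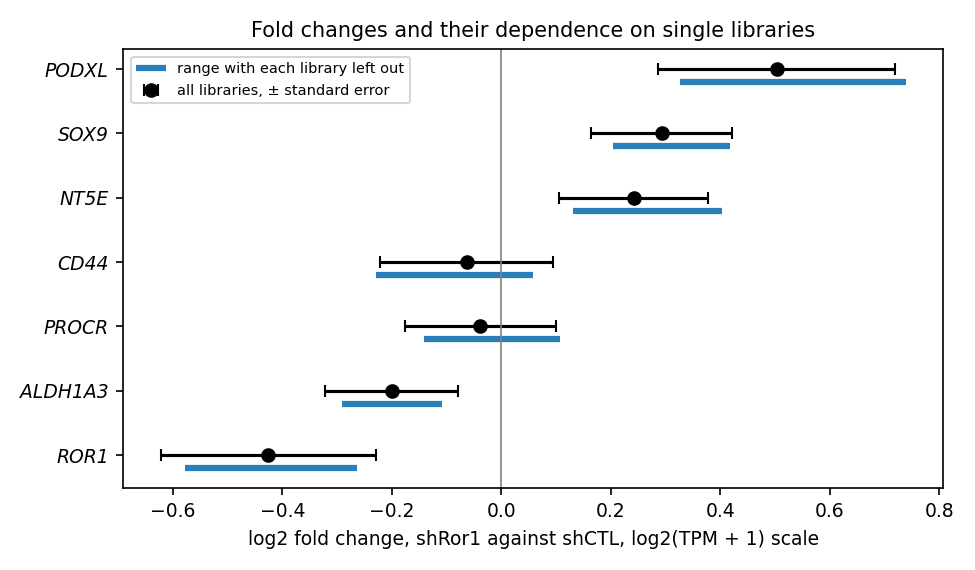
Log2 fold change of shRor1 against shCTL for the 6 expressed genes and ROR1 on the log2(TPM + 1) scale, as black points with the standard error (n = 3 libraries per condition), and blue bars for the range when each library was left out in turn. The bars of CD44 and PROCR cross 0, and those of PODXL (0.33 to 0.74), SOX9 (0.20 to 0.42), NT5E (0.13 to 0.40) and ALDH1A3 (-0.29 to -0.11) do not.

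Some of the expressed genes varied together within the conditions, and others did not. Over the 6 libraries, as deviations from the mean of each condition, PODXL and SOX9 had a Pearson r of 0.89, and PODXL and CD44 had an r of -0.94. NT5E and SOX9 had an r of 0.81, and NT5E and PROCR of -0.81. PODXL and NT5E had an r of 0.70, and CD44 had -0.89 with SOX9, -0.77 with NT5E and 0.51 with PROCR. The r of SOX9 and PROCR was -0.70. The coefficients of ALDH1A3 were 0.72 with PROCR, 0.15 with PODXL, -0.08 with CD44, -0.24 with NT5E and -0.30 with SOX9. That of PODXL and PROCR was -0.35. For ROR1 and PODXL the r was 0.93 within the conditions and 0.09 when values were not centred by condition. The other coefficients of ROR1 within the conditions were -0.77 with CD44, 0.73 with SOX9, 0.42 with NT5E, 0.30 with ALDH1A3 and -0.03 with PROCR. How many of all genes reach such an r with ROR1 was not computed. Within shRor1 the library with the least ROR1 (9.34 TPM) also had the least PODXL (66.4 TPM), while the library with the most ROR1 (14.9 TPM) had the most PODXL (118 TPM). These coefficients describe 6 libraries that share their composition, and they were not tested.

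Likeness was taken as the r over the 6 libraries without centring by condition, unlike the coefficients above. It was computed for 9111 genes with a mean of at least 10 TPM. Among the genes most like PODXL were SEC24B (r = 0.998), SEC31A (r = 0.997), SH2B3 (r = 0.996) and PALLD (r = 0.995). SEC24B and SEC31A encode coat proteins of vesicles that leave the endoplasmic reticulum, SH2B3 an adaptor protein and PALLD the actin-associated protein palladin. Likeness in pattern did not mean likeness in size, with 98.0 to 115 TPM for SEC31A against 57.4 to 118 TPM for PODXL. The genes most like CD44 were PRPF4 (r = 0.993), MRPL52 (r = 0.993), PABPC1 (r = 0.987), ERVK3-1 (r = 0.987) and SLC1A5 (r = 0.986). PRPF4 is a splicing factor, MRPL52 a mitochondrial ribosomal protein, PABPC1 the cytoplasmic poly(A)-binding protein and SLC1A5 a glutamine transporter. An r above 0.9 was reached by 674 genes for PODXL and by 353 genes for CD44, so both patterns were shared widely.

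Genes that act with the listed markers were examined in 8 further lists of 104 symbols, of which 59 were tested, 37 higher and 22 lower in shRor1 (62.7% higher, against 67.0% of all tested genes). With quantile normalization 28 were higher and 31 lower, and with median ratio scaling 27 and 32, so the directions of the lists below hold for TPM as deposited. The median stayed above 0 under both scalings for the hyaluronan, protein C and SOX lists, and the split of the PODXL partners turned to 2 higher and 4 lower with median ratio scaling. None of the 59 was called (limma, adjusted p = 0.984 at the lowest), and 1 gene had an unadjusted p below 0.05. The groups did not overlap for 4 of the 59 (6.78%, against 7.78% of all tested genes). The median log2 difference of the 59 genes was 0.04, against 0.05 for all tested genes.

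Among the relatives and partners of PODXL, 6 of 7 genes were tested, with 5 higher and 1 lower and 0 called. MSN (moesin) had 381 ± 14.0 TPM in shCTL and 390 ± 20.4 TPM in shRor1 (SD, n = 3 each). EZR (ezrin) had 200.4 ± 4.01 and 203 ± 3.78 TPM, NHERF2, a scaffold that binds the PODXL tail, 69.3 ± 3.65 and 74.4 ± 4.67 TPM, and RDX (radixin) 66.3 ± 3.06 and 75.1 ± 6.40 TPM. The mRNAs of these partners were thus abundant in both conditions, while their proteins and their binding to PODXL were not measured here. CD34, the founding member of the family, stayed between 0.23 and 0.63 TPM.

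Among the genes of hyaluronan turnover and CD44 splicing, 8 of 14 were tested, with 5 higher, 3 lower, 0 called and a median log2 difference of 0.16. HYAL2, a surface hyaluronidase, had 23.1 ± 2.77 TPM in shCTL and 22.6 ± 0.62 TPM in shRor1, and HMMR, a hyaluronan-binding protein of the spindle, 18.7 ± 0.53 and 20.3 ± 3.21 TPM. CEMIP2, a membrane protein of the hyaluronan-degrading CEMIP family, had 11.8, 11.9 and 11.0 TPM in shCTL and 13.2, 14.1 and 13.4 TPM in shRor1. It was higher in all shRor1 than in all shCTL libraries, with a log2 difference of 0.21 (standard error 0.09), and it was the gene with the unadjusted p below 0.05 (adjusted p = 0.984, limma). HAS2, a hyaluronan synthase, had 3.57 ± 0.87 and 5.07 ± 2.35 TPM.

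Of the other aldehyde dehydrogenases, 12 of 17 were tested, with 7 higher, 5 lower and 0 called. The most abundant were ALDH7A1 with 102 ± 12.0 TPM in shCTL and 106 ± 14.1 TPM in shRor1, ALDH9A1 with 70.2 ± 1.06 and 70.3 ± 3.94 TPM, ALDH18A1 with 63.0 ± 4.69 and 62.2 ± 5.02 TPM and ALDH3A2 with 54.2 ± 1.19 and 61.1 ± 4.73 TPM. ALDH3A2, the fatty aldehyde dehydrogenase, was higher in all shRor1 libraries than in all controls (log2 difference 0.17, standard error 0.08). These 4 genes stood above ALDH1A3 by level. In retinoic acid handling 8 of 17 genes were tested, with 4 higher, 4 lower and 0 called. RDH11, a retinal reductase, had 126 ± 12.5 and 125 ± 11.4 TPM, the retinoid X receptors RXRB and RXRA had 40.1 ± 3.92 and 42.4 ± 5.72 TPM and 19.4 ± 3.27 and 21.9 ± 2.58 TPM, and CRABP2, a carrier of retinoic acid, had 20.4 ± 6.49 and 17.3 ± 6.17 TPM.

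Around NT5E, 6 of the 10 adenosine genes with a row were tested, with 3 higher, 3 lower and 0 called. The nucleoside transporters SLC29A1 and SLC29A2 had 110 ± 6.72 and 107 ± 13.8 TPM and 13.6 ± 3.75 and 14.0 ± 3.41 TPM. ADORA2B, the low-affinity adenosine receptor, had 38.5, 35.1 and 33.9 TPM in shCTL and 42.3, 40.4 and 39.0 TPM in shRor1, higher without overlap (log2 difference 0.17, standard error 0.08). ADA, which degrades adenosine, had 8.34, 9.48 and 8.04 TPM in shCTL and 7.85, 7.45 and 7.40 TPM in shRor1, lower without overlap (log2 difference -0.16, standard error 0.11). Neither was called.

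Around PROCR, 4 of 7 genes of the protein C pathway were tested, with 4 higher and 0 called, while 67.0% of all tested genes were higher. Their median log2 difference was 0.33, against 0.05 for all tested genes. With quantile normalization 3 were higher and 1 lower. F2RL1 (PAR2), a protease-activated receptor, had 109, 125 and 131 TPM in shCTL and 115, 177 and 179 TPM in shRor1. F2R (PAR1), the thrombin receptor, had 11.2, 12.4 and 15.0 TPM in shCTL and 12.8, 18.2 and 19.0 TPM in shRor1, and PROS1 (protein S) had 9.84, 12.8 and 12.4 TPM in shCTL and 10.9, 16.2 and 17.8 TPM in shRor1. For these 3 genes the second and the third shRor1 library were above all controls and the first was not, as for PODXL. This arrangement was present in 15.0% of all tested genes, and a link to PODXL was not tested. Their log2 differences were 0.34 (standard error 0.17) for F2RL1, 0.34 (standard error 0.17) for F2R and 0.32 (standard error 0.19) for PROS1. THBD (thrombomodulin) had 12.9 ± 2.28 and 13.5 ± 1.88 TPM.

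Of the SOX factors 4 of 11 were tested, with 3 higher, 1 lower and 0 called. SOX9 exceeded each of them by level, since SOX13 had 17.4 ± 4.18 TPM in shCTL and 18.7 ± 3.90 TPM in shRor1, SOX12 had 11.3 ± 1.65 and 11.9 ± 0.92 TPM, SOX4 had 3.48 ± 0.43 and 5.52 ± 2.15 TPM and SOX15 had 1.51 ± 0.22 and 1.45 ± 0.32 TPM. SOX2, a pluripotency factor, did not exceed 0.09 TPM. Of 20 other stem-like cell markers 11 were tested, with 6 higher, 5 lower and 0 called. ITGA6, the laminin receptor subunit CD49f, had 98.7, 85.8 and 105 TPM in shCTL and 92.8, 111 and 150.2 TPM in shRor1. BMI1, a polycomb protein, had 81.7 ± 8.86 and 91.6 ± 4.51 TPM, ENG (endoglin, CD105) had 77.9 ± 8.55 and 77.5 ± 11.9 TPM and MCAM (CD146) had 59.2 ± 6.90 and 59.2 ± 11.4 TPM. Thus of the surface trio that defines mesenchymal stromal cells in culture, CD73 and CD105 were expressed and CD90 was near 0.

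**Figure D4:**
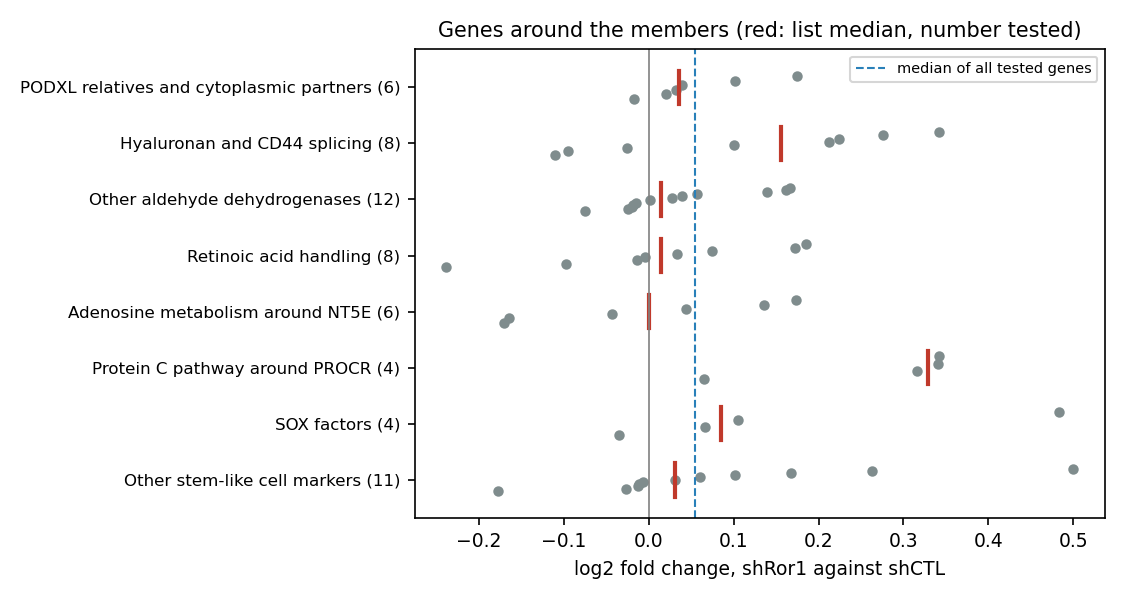
Log2 fold change of shRor1 against shCTL for each tested gene (gray points) of the 8 further lists, with the number of genes tested in brackets, the list median as a red bar and the median of all tested genes, 0.05, as a dashed line. The largest list median, 0.33, belongs to the 4 genes of the protein C pathway, and none of the genes shown was called.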

How the data were processed

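RNA from 3 shCTL and 3 shRor1 libraries had been sequenced as single reads of 50 bases. The labels name polyA RNA and the study's methods a total RNA kit, and which RNA the TPM shares refer to was not settled. Per the submitters' processing notes and the study's methods, the authors mapped reads to GRCh37 with STAR and estimated gene abundances with RSEM 1.2.5. The deposited values are TPM with 2 decimals, although the table's name speaks of counts. TPM keeps no depth, and a count model was therefore not used. The number of per-sample columns not used was 0.

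Genes that reached 1 TPM in 3 or more libraries (16554 of 57445) were compared on log2(TPM + 1) across all genes with limma 3.58.1 in R 4.3.3 (mean-variance trend, condition as the only term, Benjamini-Hochberg at 0.05). Tested on simulated data of the 16554 genes for this comparison, the fit recovered 73.6% of genes changed by 1 and 93.5% of genes changed by 2 on the log2 scale, with 8 false calls per run. The values were drawn independently for each gene. Smaller changes, such as the 0.50 of PODXL, were not simulated, so these shares do not give the recovery at that size. Symbols matched 55022 identifiers, and coordinates came from GENCODE 44 on GRCh37. Older symbols in the further lists were matched to those of the table through RefSeq synonyms.

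The listed genes and the further lists were chosen with earlier results of these data known. Named were all listed genes, ROR1, up to 4 tested genes with the highest mean TPM per further list, and the 5 genes most like PODXL and CD44, of which 1 is not reported here. VIM, ESR1, PGR, KRT19, FOXA1, GATA3, CLDN3 and CDH1 belong to the cell type marker lists that were checked. CD34, SOX2 and CD24P4, outside the rule, were named after their values were seen. Alternatives were a pseudocount of 0.1, no filter, a mean of at least 5 TPM, quantile normalization, median ratio scaling, sums by symbol and each library left out.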

Additional observations from a re-analysis of the deposited data

How the results depend on the processing

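No paired analysis was possible because neither condition's headers number their libraries, although the sample titles do, and the fit with a replicate block was not run. When single libraries were left out, the number of genes past the adjusted threshold ran from 0 to 1, and it was 0 under the 6 other alternatives. The 1 gene, called without the third shRor1 library, was the ribosomal protein pseudogene RPL39P3, named after its values were seen, with 0 TPM in the first and the second and 21.7 TPM in the third shRor1 library. The number of listed genes with a higher mean in shRor1 was 3 of 6 and ran from 3 to 5 with each library left out, with 5 without the first shCTL library, where CD44 and PROCR changed sign, and 4 without the second or the third shRor1 library. PODXL kept its direction under all 12 alternatives (0.33 to 0.74), as did SOX9, NT5E, ALDH1A3 and ROR1. The settings without the filter, with a mean of at least 5 TPM and with sums by symbol could not change these differences. They leave the values of these genes as they were. The listed genes were chosen with this contrast known, so nothing is read from the kept directions. The number of non-overlapping neighbours by level was 4 under all 9 alternatives. Only this number was compared, and not the order or which genes formed the pairs. The median of the 59 further genes was 0.04 and ran from -0.01 to 0.09 over the 12 alternatives. It fell below 0 with quantile normalization and median ratio scaling, which also moved the median of all genes from 0.05 to 0.0015 and 0.001. The files hold no counts, which limits what the values of THY1, PROM1 and ALDH1A1 near 0 can show.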
